A study of Mus musculus with 3 samples.

Results

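Hox genes encode homeodomain transcription factors that give cells their position along the head-to-tail axis of the embryo. In mice they lie in 4 clusters, HoxA on chromosome 6, HoxB on chromosome 11, HoxC on chromosome 15 and HoxD on chromosome 2. Within a cluster the genes are numbered by paralog group, and low numbers are used towards the head and high numbers towards the tail. Polycomb complexes keep unused Hox genes silent, MLL complexes keep used ones active, and Hox proteins bind DNA together with Pbx and Meis proteins. Adult cells often retain the Hox pattern of the body region they came from, which is best described in human fibroblasts. The members described here are the rows whose symbol is Hoxa, Hoxb, Hoxc or Hoxd followed by a number. They were 39 of the 25791 gene symbols in the table, with 11 in HoxA, 10 in HoxB, 9 in HoxC and 9 in HoxD.

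RNA was sequenced from cultured mouse melanoma lines called YUMM1.1, YUMM2.1 and YUMM1.7, each as 1 library, in a series on how transplanted mouse melanoma responds when PD-1, a brake on T cells, is blocked. GEO's labels give the name of each line and no genotype, treatment, passage or age. YUMM lines are known to come from melanomas of mice in which an inducible Cre driven by the tyrosinase promoter activated Braf in melanocytes, with tumor suppressor genes deleted; YUMM2.1 is also known to carry a stabilised beta-catenin allele. Each line was grown from a tumor, so a difference between libraries cannot be told apart from a difference between tumors. Values were FPKM, in which fragment counts are divided by the length of the transcript and the size of the library, so levels of different genes are compared per length. With 1 library per line there was no spread between cultures and no p-value. A fixed size was used instead, a difference of 1 or more in log2(FPKM + 1), which is 2-fold on that scale and understates changes of low genes. In bulk RNA a smaller share of expressing cells and less RNA per cell cannot be told apart.

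The spacing of the lowest values gave the FPKM that 1 fragment is worth, and from it depths of about 68.3 M fragments for YUMM1.1, 87.3 M for YUMM2.1 and 45.8 M for YUMM1.7. The scaling of the libraries is not given in the sources used here, so these depths need not equal the fragments sequenced. Estimated fragments and 95% exact Poisson intervals rest on these steps and on the longest coding transcript of each gene, and cover counting error only. YUMM1.7 listed 5 symbols at 0 that stood at 100 FPKM or more in both other lines, among them Rpl41 and Rn18s, so its zeros can be failed estimates. For YUMM1.1 and YUMM2.1 there were 0 such symbols. The melanocyte regulator gene Sox10 stood at 107 FPKM in YUMM1.1, 44.3 in YUMM2.1 and 0.00821 in YUMM1.7, so the melanoma label had this marker in only the first pair of libraries. The pigment genes Tyr, Tyrp1 and Dct were below 0.3 FPKM in all 3 lines. Mlana, a melanosome gene, stood at 0.159 FPKM in YUMM1.1, 6.18 in YUMM2.1 and 0 as listed in YUMM1.7, and Mlph, a melanosome transport gene, at 28.8, 23.5 and 0.751.

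The promoters of 5 members are shown because they stand for the patterns found: Hoxb4 and Hoxd8 were on in YUMM2.1 and YUMM1.7, Hoxa5 and Hoxd13 passed 1 FPKM in YUMM2.1 alone, and Hoxd9 in YUMM1.7 alone. The windows run from 250 bases before to 50 bases after the gene start, are written 5′ to 3′ on the gene's own strand, and come from RefSeq on GRCm38.p6. The build the authors used is not given in the sources used here. Capitals mark matches on either strand to 5 motifs. The first is the sequence TATAAA of the classical promoter box near the gene start. The second is CCAAT, bound by the general factor NF-Y. The third is TGACAG, the core letters recognised by Meis and Pknox proteins. The fourth is TGATNNAT, a composite recognised by Pbx together with Hox proteins. The fifth is AGGTCA, a half-site of nuclear receptors that include the retinoic acid receptors. In Hoxd13 the longest capital run holds the first motif on both strands, overlapping.
Hoxb4, chr11:96318017-96318316, plus strand: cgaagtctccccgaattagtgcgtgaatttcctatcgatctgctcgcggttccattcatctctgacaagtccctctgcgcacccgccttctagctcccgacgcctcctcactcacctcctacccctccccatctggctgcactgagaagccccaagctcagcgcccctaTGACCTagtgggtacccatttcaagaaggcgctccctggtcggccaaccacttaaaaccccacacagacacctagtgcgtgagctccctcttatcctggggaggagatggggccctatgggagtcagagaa
Hoxd8, chr2:74704365-74704664, plus strand: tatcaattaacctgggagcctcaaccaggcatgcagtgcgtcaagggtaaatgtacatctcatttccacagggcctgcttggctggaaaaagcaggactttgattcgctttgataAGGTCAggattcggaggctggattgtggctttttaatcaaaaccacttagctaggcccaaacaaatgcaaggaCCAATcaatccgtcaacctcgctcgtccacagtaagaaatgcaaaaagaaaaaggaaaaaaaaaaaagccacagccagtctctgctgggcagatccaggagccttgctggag
Hoxa5, chr6:52204538-52204837, minus strand: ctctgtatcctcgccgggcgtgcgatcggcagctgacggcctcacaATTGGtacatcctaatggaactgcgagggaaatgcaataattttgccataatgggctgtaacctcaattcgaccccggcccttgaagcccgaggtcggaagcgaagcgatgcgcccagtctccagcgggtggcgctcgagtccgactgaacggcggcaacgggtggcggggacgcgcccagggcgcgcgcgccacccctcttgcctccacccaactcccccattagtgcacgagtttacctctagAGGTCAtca
Hoxd13, chr2:74667975-74668274, plus strand: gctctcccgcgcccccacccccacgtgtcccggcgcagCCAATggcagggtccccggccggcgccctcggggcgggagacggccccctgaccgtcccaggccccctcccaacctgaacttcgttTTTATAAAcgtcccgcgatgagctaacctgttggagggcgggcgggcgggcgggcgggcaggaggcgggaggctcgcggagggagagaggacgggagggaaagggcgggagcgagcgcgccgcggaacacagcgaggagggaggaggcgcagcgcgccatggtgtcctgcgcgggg
Hoxd9, chr2:74697513-74697812, plus strand: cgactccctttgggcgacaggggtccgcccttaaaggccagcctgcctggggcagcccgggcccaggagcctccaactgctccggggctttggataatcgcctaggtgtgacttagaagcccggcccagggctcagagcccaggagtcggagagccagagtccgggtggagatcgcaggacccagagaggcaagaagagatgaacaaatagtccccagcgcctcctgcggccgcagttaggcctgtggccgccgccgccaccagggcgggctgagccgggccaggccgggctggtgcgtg

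Of the 39 members, 22 had a promoter in the RefSeq table, with 24 windows of 300 bases, and 8 of the 13 members that reached 1 FPKM were among them. The Hox windows held a median of 14.5 CpG dinucleotides against 7 over all 32851 windows of the table. Those shown span much of that range, with 6 CpG in Hoxd8, 14 in Hoxb4, 20 in Hoxd9, 29 in Hoxa5 and 37 in Hoxd13. The CCAAT motif was in 15 of the 24 Hox windows and in 37.4% of all windows of that length, the TATA motif in 4 and in 13.6%, and the nuclear receptor half-site in 7 and in 16.3%. The Pbx and Hox composite was in 4 Hox windows and in 8.85% of all, and the Meis core in 2 and in 19.2%. Hoxb4 and Hoxd8, the pair shown from the shared set, both held the half-site, as did Hoxa5. Hoxb3, Hoxb6 and Hoxb7, also on in both lines, had no window. The half-site was also in Hoxc4, Hoxd3, Hoxd4 and Hoxd10, which stayed below 1 FPKM in every line. Hoxd9 held none of the 5 motifs. A match is a description of the letters and not a binding site.

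YUMM1.1 was almost without Hox transcripts, whereas YUMM2.1 and YUMM1.7 each expressed a set of them. In YUMM1.1, 30 of 39 members were listed at 0 and 0 reached 1 FPKM. In YUMM2.1, 8 were listed at 0 and 10 reached 1 FPKM, and in YUMM1.7, 22 and 8. Over all symbols the share listed at 0 was 36.2% in YUMM1.1, 33.2% in YUMM2.1 and 38% in YUMM1.7, and the share at 1 FPKM or more was 40.4%, 41.8% and 40.7%. The summed FPKM of the 39 genes was 0.474 in YUMM1.1, 41.7 in YUMM2.1 and 32.2 in YUMM1.7. Even in the last pair of lines most members stayed below 1 FPKM.

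**Figure D1:**
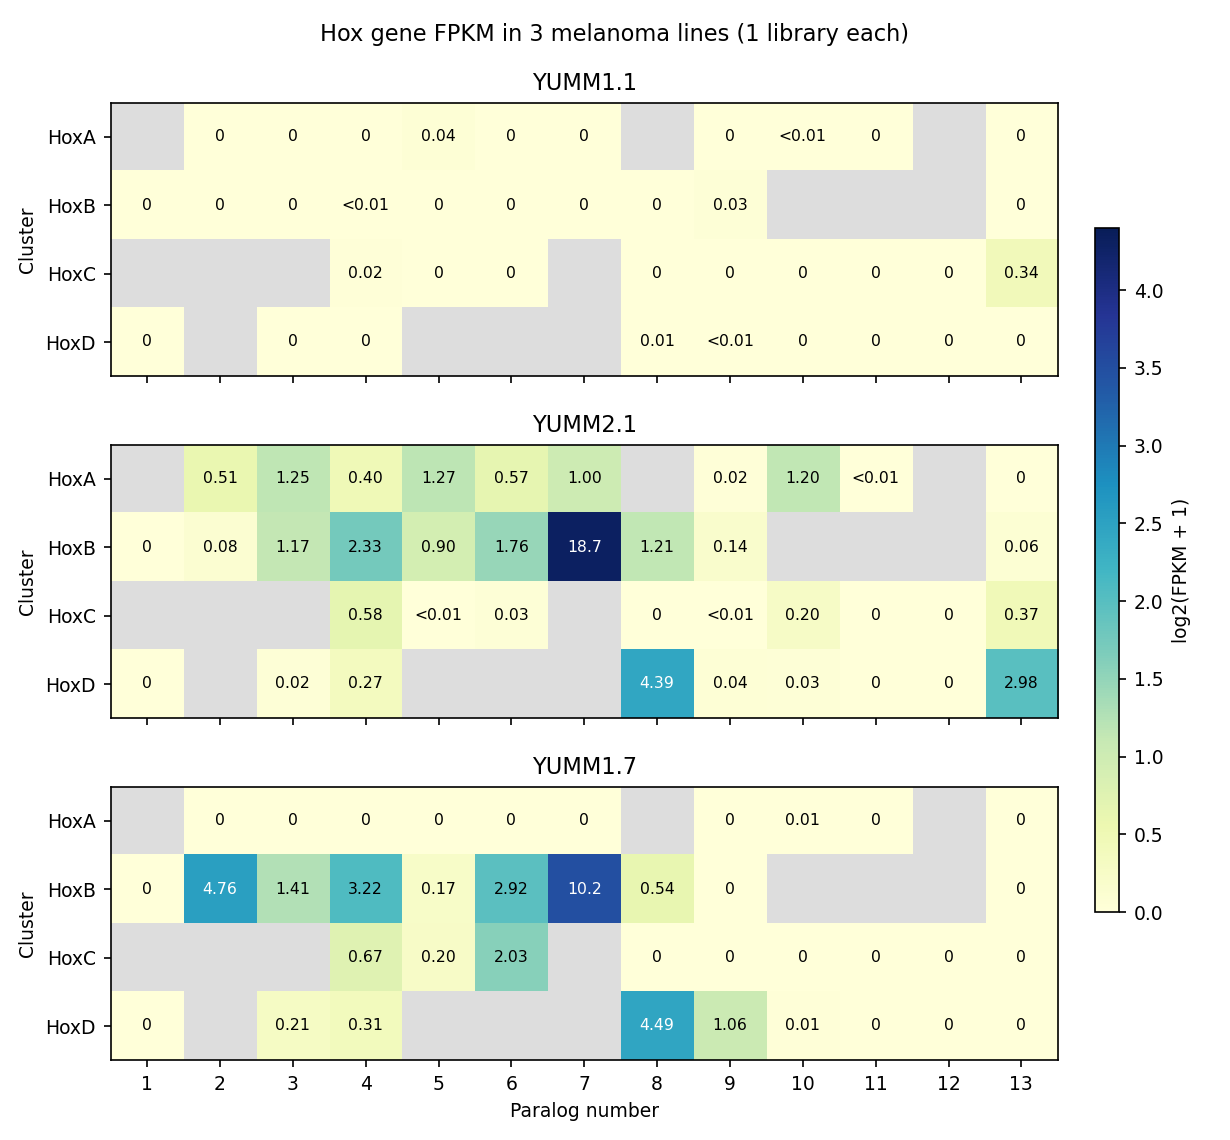
FPKM of each Hox gene by cluster (rows) and paralog number (columns) in the 3 lines, 1 library each; cell colour is log2(FPKM + 1), the printed number is FPKM, and grey cells are combinations with no gene or not shown here. YUMM1.1 is near 0 throughout, HoxB is filled from paralog 2 or 3 to 8 in the other lines, and HoxA is filled in YUMM2.1 only.

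The few transcripts of YUMM1.1 amounted to single fragments for most genes. Of its 9 members above 0, 6 had an estimated 3 fragments or fewer, among them Hoxb4 at 0.0059 FPKM (about 1 fragment) and Hoxd8 at 0.0114 FPKM (about 2 fragments). Hoxa5 (0.0416 FPKM) and Hoxb9 (0.0335 FPKM) had about 5 and 6 fragments. Hoxc13, a regulator of hair and nail keratins, was the exception at 0.338 FPKM, about 57 fragments. It stood at 0.367 FPKM in YUMM2.1 (about 79 fragments) and was listed at 0 in YUMM1.7. Each of the 4 clusters had 2 or 3 members above 0 in YUMM1.1, so in no cluster was every gene listed at 0. The 2 HoxD members above 0 each had an estimated 3 fragments or fewer. Among 9760 symbols at 1 FPKM or more in both other lines, 14 were listed at 0 in YUMM1.1, and 3 of those 14 were Hoxb3, Hoxb6 and Hoxb7.

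By the fixed size, 10 of the 39 members had a higher and 0 a lower value in YUMM2.1 than in YUMM1.1. Over all 25791 symbols 2.83% were higher and 3.48% lower. Among the 11741 symbols that reached 1 FPKM in at least 1 line the shares were 6.21% and 7.64%, and 13 Hox genes were among these. Each of the 13 reached 1 FPKM through YUMM2.1 or YUMM1.7 and none through YUMM1.1, so the share of those 13 that differed from YUMM1.1 is fixed in part by that threshold. In YUMM1.7, 8 of the 39 were higher than in YUMM1.1 and 0 lower, against 6.16% and 4.51% of all symbols and 13.5% and 9.91% of those at 1 FPKM. The median difference over the 39 was 0.14 for YUMM2.1 and 0 for YUMM1.7, and over all symbols it was 0 in both comparisons. Both comparisons use the same YUMM1.1 library. The highest Hox value in that library was 0.338 FPKM, so no member could be lower by the fixed size in either line. The members counted as higher were the same ones that reached 1 FPKM in each line, so these counts restate that result.

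**Figure D2:**
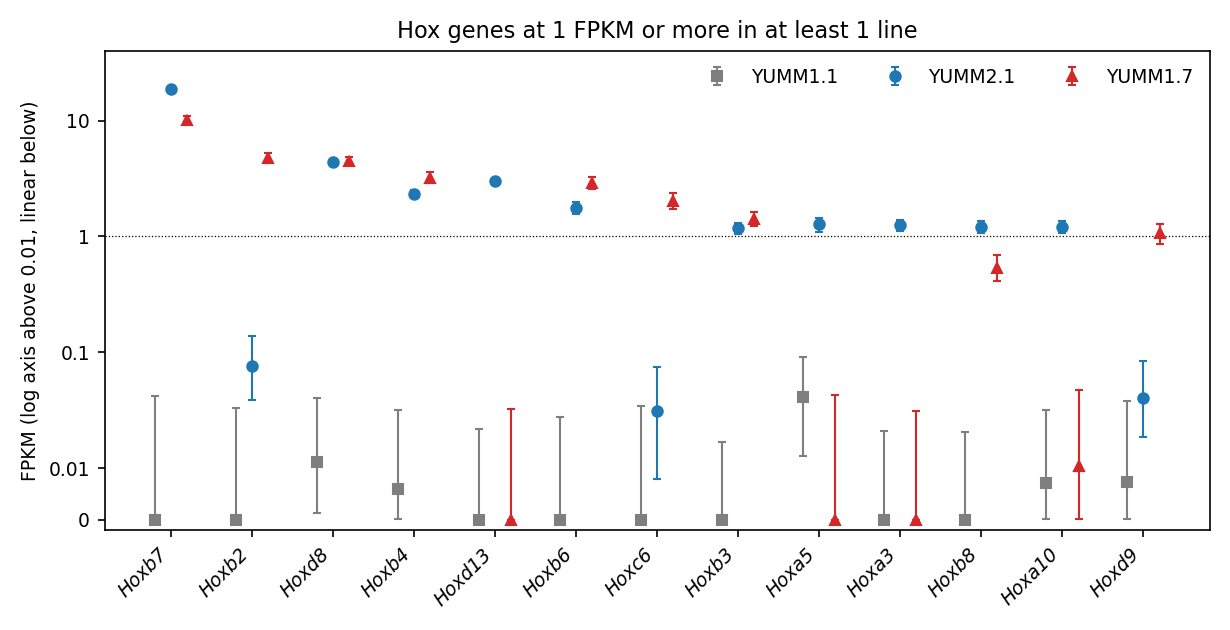
FPKM of the 13 Hox genes at 1 FPKM or more in at least 1 line (log axis above 0.01, linear below it; dotted line at 1 FPKM), with 95% exact Poisson intervals on the estimated fragments, counting error only. YUMM1.1 lies below 0.1 FPKM for each gene, and the other lines differ most at Hoxb2, Hoxc6, Hoxd13 and the HoxA genes.

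HoxB carried most of the Hox RNA in both expressing lines. It summed to 26.4 FPKM in YUMM2.1 (63.3% of the Hox total), 23.2 in YUMM1.7 (72%) and 0.0394 in YUMM1.1. Hoxb7 was the most abundant Hox gene in both. In human melanoma its ortholog is known to activate the fibroblast growth factor gene FGF2. Hoxb7 was listed at 0 in YUMM1.1, with an upper 95% Poisson limit of 0.0419 FPKM. It stood at 18.7 FPKM (95% interval 18.0 to 19.6) in YUMM2.1 and at 10.2 FPKM (9.41 to 11.1) in YUMM1.7, 1.84-fold apart. The counting intervals of the expressing lines do not meet, but the difference on the log2(FPKM + 1) scale was 0.82, under the fixed size. It passed that size with the libraries brought to a common upper quartile (1.03) or a common FPKM sum (2.12).

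The other HoxB genes from paralog 2 to 8 formed an unbroken run above 0 in both lines. Hoxb4, which promotes the self-renewal of blood stem cells, stood at 0.0059 FPKM in YUMM1.1, 2.33 in YUMM2.1 and 3.22 in YUMM1.7. Hoxb6, a gene of axial patterning, was listed at 0 in YUMM1.1 and stood at 1.76 FPKM in YUMM2.1 and 2.92 in YUMM1.7. Hoxb3, a gene of the hindbrain and neck, was listed at 0 in YUMM1.1 and stood at 1.17 and 1.41 FPKM in YUMM2.1 and YUMM1.7. As deposited, these 3 were higher in YUMM1.7 by less than the fixed size. The order turned under a common FPKM sum, where YUMM2.1 minus YUMM1.7 was 0.65 for Hoxb3, 0.69 for Hoxb4 and 0.47 for Hoxb6. Hoxb8, a regulator of myeloid progenitors, ran the other way, listed at 0 in YUMM1.1 and at 1.21 FPKM in YUMM2.1 and 0.54 in YUMM1.7. Hoxb5 stood below 1 FPKM in every line, at 0.896 in YUMM2.1, 0.17 in YUMM1.7 and 0 as listed in YUMM1.1.

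The head end of the run separated the lines. Hoxb2, which patterns the hindbrain and its facial motor neurons, was listed at 0 in YUMM1.1 and stood at 0.0764 FPKM (0.0386 to 0.138) in YUMM2.1 and 4.76 (4.28 to 5.29) in YUMM1.7. YUMM1.7 was 62.4-fold above YUMM2.1 for this gene, with a difference of -2.42 in log2(FPKM + 1) for YUMM2.1 minus YUMM1.7. Hoxb1 at the front of the cluster was listed at 0 in all 3 lines. At the tail end Hoxb9 stood at 0.136 FPKM in YUMM2.1 and was listed at 0 in YUMM1.7. Hoxb13, which lies apart from the rest of the cluster, stood at 0.0589 FPKM in YUMM2.1 and was listed at 0 in the other lines.

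HoxA RNA was found in YUMM2.1 and hardly in either other line. The cluster summed to 6.36 FPKM in YUMM2.1, 0.0549 in YUMM1.1 and 0.0286 in YUMM1.7. Hoxa5, which is needed for lung and neck development, stood at 0.0416 FPKM in YUMM1.1 and 1.27 (1.1 to 1.45) in YUMM2.1 and was listed at 0 in YUMM1.7. Hoxa3, a gene of the thymus and parathyroid, stood at 1.25 FPKM in YUMM2.1 and was listed at 0 in the other lines. Hoxa10, which patterns the lumbar spine and the uterus, stood at 0.00712 FPKM in YUMM1.1, 1.2 in YUMM2.1 and 0.0105 in YUMM1.7, the outer values being about 1 fragment each. All 3 passed the fixed size against both other lines. Their values in YUMM2.1 were close to each other, with counting intervals that overlapped.

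The remaining HoxA genes in YUMM2.1 were weaker and followed their place in the cluster only in part. Hoxa7 stood at 0.999 FPKM, just under the threshold, Hoxa6 at 0.568, Hoxa2 at 0.509 and Hoxa4 at 0.395. Hoxa9 (0.0211 FPKM) was far below its neighbour Hoxa10. Hoxa11 was at 0.00535 FPKM, about 1 fragment, and Hoxa13 was listed at 0. In YUMM1.7 the cluster had 9 of its 11 members listed at 0. The antisense RNA Hoxaas3, listed under the older symbol 2700086A05Rik, stood at 0.223 FPKM in YUMM2.1 and was listed at 0 in the other lines.

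**Figure D3:**
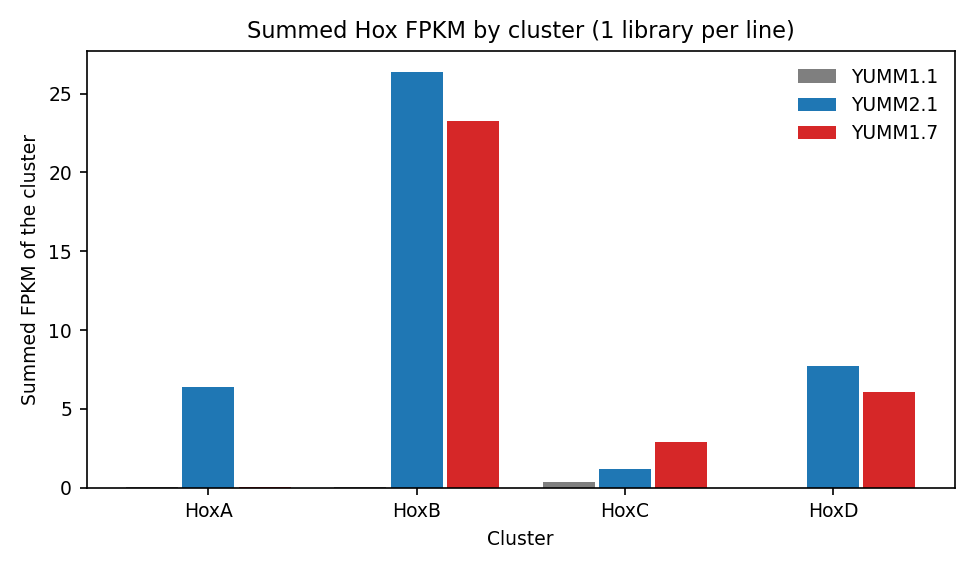
Summed FPKM of the genes of each Hox cluster in the 3 lines, 1 library each, with bars starting at 0. HoxB is the tallest in both expressing lines (26.4 and 23.2), and the HoxA bar is visible for YUMM2.1 only (6.36).

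Of the 9 HoxD genes, 6 were above 0 in YUMM2.1 and 5 in YUMM1.7, and 2 reached 1 FPKM in each. Hoxd8, a gene of the trunk, stood at 0.0114 FPKM in YUMM1.1, 4.39 (4.13 to 4.67) in YUMM2.1 and 4.49 (4.12 to 4.88) in YUMM1.7. The expressing lines had overlapping counting intervals for it as deposited. Under a common FPKM sum YUMM2.1 minus YUMM1.7 was 1.12 for Hoxd8, past the fixed size. The median of all expressed symbols was then itself 1.1. Hoxd13, which shapes the digits and the genital tubercle and is at the tail end of the cluster, stood at 2.98 FPKM (2.76 to 3.22) in YUMM2.1, about 647 fragments. It was listed at 0 in YUMM1.1 and YUMM1.7, and its neighbours Hoxd11 and Hoxd12 were listed at 0 in all 3 lines. Hoxd9, a limb and axial gene, stood at 0.00735 FPKM in YUMM1.1, 0.0403 in YUMM2.1 and 1.06 (0.869 to 1.29) in YUMM1.7. YUMM1.7 was 26.4-fold above YUMM2.1 there, and the difference of -0.99 in log2(FPKM + 1) for YUMM2.1 minus YUMM1.7 was just short of the fixed size. Hoxd3 was also higher in YUMM1.7 (0.214 FPKM) than in YUMM2.1 (0.0243), and Hoxd4 stood at 0.315 and 0.273 FPKM. Hoxd10 stood at 0.0275 FPKM in YUMM2.1 and 0.013 in YUMM1.7, and Hoxd1 was listed at 0 throughout.

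HoxC was the least used cluster in YUMM2.1, at a sum of 1.19 FPKM, and summed to 2.89 in YUMM1.7 and 0.361 in YUMM1.1. Hoxc6, a gene of the thoracic region, was listed at 0 in YUMM1.1 and stood at 0.0314 FPKM (about 4 fragments) in YUMM2.1 and 2.03 (1.72 to 2.39) in YUMM1.7. YUMM1.7 was 64.5-fold above YUMM2.1, and the difference of -1.55 in log2(FPKM + 1) for YUMM2.1 minus YUMM1.7 passed the fixed size. Its neighbour Hoxc5 went the same way at a lower level, at 0.196 FPKM in YUMM1.7 and 0.00432 in YUMM2.1. Hoxc4 was similar in both, at 0.577 FPKM in YUMM2.1 and 0.67 in YUMM1.7, and stood at 0.0235 in YUMM1.1. Hoxc10 was above 0 in YUMM2.1 alone (0.201 FPKM), as was Hoxc9 (0.0072 FPKM, about 1 fragment). Hoxc8, Hoxc11 and Hoxc12 were listed at 0 in all 3 lines.

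Read by paralog number, the central groups 4 to 8 held 80.3% of the summed Hox FPKM in YUMM2.1 and 76.8% in YUMM1.7. The remainder lay towards different ends. Groups 9 to 13 held 12.1% in YUMM2.1 and 3.37% in YUMM1.7, and groups 1 to 3 held 7.61% and 19.9%. This contrast rests largely on 1 gene at each end. Hoxd13 gave 2.98 of the 5.05 FPKM of groups 9 to 13 in YUMM2.1. Hoxb2 gave 4.76 of the 6.41 FPKM of groups 1 to 3 in YUMM1.7. Hoxb7 alone makes up much of the central share: group 7 held 47.4% of the total in YUMM2.1 and 31.6% in YUMM1.7. Groups 11 and 12 had almost no RNA, and Hoxa11 in YUMM2.1 (0.00535 FPKM) was the only value above 0 among their 5 genes.

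Between the expressing lines, 5 genes reached 1 FPKM in both: Hoxb3, Hoxb4, Hoxb6, Hoxb7 and Hoxd8. They were 50% of the set of YUMM2.1 and 62.5% of the set of YUMM1.7. Over all symbols the 9760 at 1 FPKM in both were 90.4% and 93.0% of the sets of these lines. Hoxa3, Hoxa5, Hoxa10, Hoxb8 and Hoxd13 reached it in YUMM2.1 alone, and Hoxb2, Hoxc6 and Hoxd9 in YUMM1.7 alone. By the fixed size 4 of the 39 were higher in YUMM2.1 than in YUMM1.7 (Hoxa3, Hoxa5, Hoxa10 and Hoxd13) and 2 lower (Hoxb2 and Hoxc6), against 5.34% and 8.9% of all symbols and 11.7% and 19.5% of those at 1 FPKM. With the 3 libraries brought to the same FPKM total, 9 genes were higher in YUMM2.1, and the median of all expressed symbols was then itself 1.1.

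Coding transcripts of different Hox genes shared little exact sequence. Of the 39 genes, 35 shared no stretch of 50 bases with the coding transcripts of any other Hox gene. Hoxb4 and Hoxa6 shared 0.119% and 0.364% of their stretches, and Hoxb9 and Hoxc9 less. The read length was not known here. Whether counting used the strand is not given in the sources used here, so RNA of antisense genes in the clusters cannot be told apart from that of the Hox genes.

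Of 32 genes beside the clusters in the table, 27 reached 1 FPKM. In YUMM2.1 against YUMM1.1, 2 of the 27 were higher and 0 lower (median -0.03), where 6.21% and 7.64% of all symbols at 1 FPKM were. In YUMM1.7 against YUMM1.1, 2 were higher and 1 lower (median -0.11), against 13.5% and 9.91%. In YUMM2.1 against YUMM1.7, 3 were higher and 5 lower (median -0.16), against 11.7% and 19.5%. In this last comparison, of the 7 genes beside HoxA, 2 were higher in YUMM2.1 and 0 lower, with a median of 0.77. The medians were -0.30 beside HoxB, -0.72 beside HoxC and -0.24 beside HoxD. The pair beside HoxA was Skap2, an adaptor gene (7.78 FPKM in YUMM1.1, 32.8 in YUMM2.1 and 10.1 in YUMM1.7), and Jazf1, a zinc finger gene (1.54, 2.82 and 0.174). The housekeeping neighbours Hnrnpa2b1 beside HoxA (130 FPKM in YUMM1.1, 169 in YUMM2.1, 121 in YUMM1.7) and Mtx2 beside HoxD (40.2, 44.1 and 35.9) were abundant in all 3 lines, YUMM1.1 included. Those higher in YUMM2.1 than YUMM1.1 were Skap2 and Chn1, a Rac regulator on the HoxD chromosome (0.482 FPKM in YUMM1.1, 3.41 in YUMM2.1 and 13.2 in YUMM1.7). The related factor genes Evx1 and Evx2, which lie at the ends of HoxA and HoxD, were at most 0.0089 FPKM, although Hoxd13 beside Evx2 stood at 2.98 FPKM in YUMM2.1. The 6 microRNA genes of the clusters were listed at 0 in all 3 lines, and no small RNA library was analysed here.

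**Figure D4:**
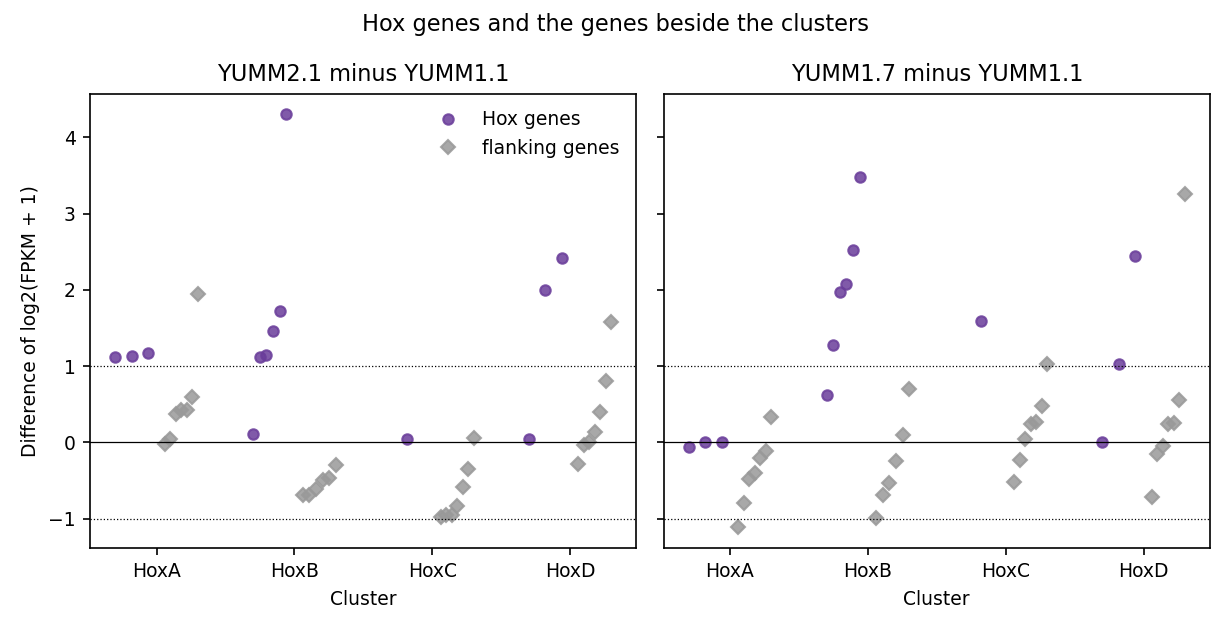
Difference in log2(FPKM + 1) from YUMM1.1 for the 13 Hox genes that reached 1 FPKM (circles) and the 27 genes beside the clusters that did (diamonds), by cluster; dotted lines mark the fixed size of 1. The 13 circles passed 1 FPKM through YUMM2.1 or YUMM1.7 and none through YUMM1.1, so their place above 0 is fixed in part by that threshold.

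RNA for the protein partners of Hox factors was found in all 3 lines, including YUMM1.1. All 9 TALE homeobox genes were above 0 in each, and 8 reached 1 FPKM in YUMM1.1, 7 in YUMM2.1 and 6 in YUMM1.7. Their summed FPKM was 36.5 in YUMM1.1, 37.0 in YUMM2.1 and 29.4 in YUMM1.7. Pbx3 stood at 2.97, 6.16 and 4.13 FPKM in YUMM1.1, YUMM2.1 and YUMM1.7. Meis1 stood at 0.508, 0.639 and 0.325 FPKM and Meis2 at 1.58, 1.91 and 1.74, in the same order. Of the 8 TALE genes at 1 FPKM, 0 passed the fixed size between YUMM2.1 and YUMM1.1 (median -0.07). Of all symbols at 1 FPKM, 6.21% passed it with more in YUMM2.1 and 7.64% with less. Between YUMM1.7 and YUMM1.1, 0 of the 8 were higher and 1 lower (median -0.33), against 13.5% and 9.91% of all symbols. The lower gene was Pknox2 (3.49 FPKM in YUMM1.1, 6.96 in YUMM2.1 and 0.772 in YUMM1.7). A list of 8 genes is too short to tell these counts from those shares.

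Polycomb and MLL genes were likewise above 0 in every line, but not all reached 1 FPKM. Of the 11 genes of Polycomb complex 2, 10 did in YUMM1.1, 9 in YUMM2.1 and 10 in YUMM1.7. Of the 13 of Polycomb complex 1, 12, 12 and 13 did, and all 10 of the MLL list did in each line. Of the 11 genes of Polycomb complex 2, 0 passed the fixed size in YUMM2.1 against YUMM1.1. Ezh2, its methyltransferase, stood at 21.5 FPKM in YUMM1.1, 22.1 in YUMM2.1 and 12.9 in YUMM1.7. Its accessory gene Phf19 was the only one to pass in YUMM1.7 against YUMM1.1, with values of 0.221, 0.88 and 8.05 FPKM in YUMM1.1, YUMM2.1 and YUMM1.7. The medians of that list were 0.11 for YUMM2.1 minus YUMM1.1 and 0.16 for YUMM1.7 minus YUMM1.1. Of the 13 genes of Polycomb complex 1, Phc2 alone passed against YUMM1.1, with less in YUMM2.1 and more in YUMM1.7 (28.5 FPKM in YUMM1.1, 12.5 in YUMM2.1 and 72.7 in YUMM1.7), and the medians were -0.10 and 0.55. Kmt2a, the MLL1 methyltransferase that maintains Hox expression and is listed as Mll1, stood at 3.11 FPKM in YUMM1.1, 8.23 in YUMM2.1 and 4.62 in YUMM1.7. It was the only one of 10 genes of its list to pass the fixed size between YUMM2.1 and YUMM1.1. Dpy30, a subunit of the same complexes, was the only one between YUMM1.7 and YUMM1.1 (728 against 315 FPKM), and the medians of that list were -0.15 and 0.15. Over all symbols at 1 FPKM the medians of these comparisons were -0.05 and 0.02. Of those symbols, 6.21% passed the fixed size against YUMM1.1 with more in YUMM2.1 and 7.64% with less. For YUMM1.7 against YUMM1.1 the shares were 13.5% and 9.91%. Lists of 10, 11 and 13 genes are too short to tell counts of 0 or 1 from these shares.

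Of 9 retinoic acid receptor and clearance genes 5 reached 1 FPKM, and 0 were higher and 1 lower than in YUMM1.1 in either expressing line. The shares over all symbols at 1 FPKM were 6.21% higher and 7.64% lower in YUMM2.1, and 13.5% and 9.91% in YUMM1.7. Retinoic acid induces head-end Hox genes in embryos. Rarb, a receptor gene that retinoic acid itself induces, stood at 1.62 FPKM in YUMM1.1, 2.09 in YUMM2.1 and 0.032 in YUMM1.7. A part of retinoic acid in the Hox values was not tested. Rarg stood at 16.8 FPKM in YUMM1.1, 7.28 in YUMM2.1 and 16.0 in YUMM1.7. Gdf11, a TGF-beta family ligand that promotes tail-end Hox genes in the embryo, was lower in both expressing lines, at 18.1 FPKM in YUMM1.1, 4.5 in YUMM2.1 and 7.4 in YUMM1.7. It was the only one of 7 listed developmental activators to pass the fixed size against YUMM1.1, and 2 of the 7 reached 1 FPKM. The Cdx genes, direct activators of central Hox genes, were at most 0.0212 FPKM in any line.

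Markers of other cell types moved with the lines. The 8 fibroblast markers summed to 0.944 FPKM in YUMM1.1, 4.27 in YUMM2.1 and 169 in YUMM1.7, with Pdgfra at 0.202, 0.17 and 13.9 FPKM. Most of the YUMM1.7 sum came from 1 marker that is not named here. Lum was at most 0.00583 FPKM and Thy1 at most 0.0356 in any line, so not every marker was on in YUMM1.7. Pdgfrb stood at 0.0107, 1.88 and 13.02 FPKM, and Col1a1 at 0.455, 1.17 and 1.79. The Col1a1 differences from YUMM1.1 were under the fixed size, at 0.57 for YUMM2.1 and 0.94 for YUMM1.7. In YUMM2.1 against YUMM1.1, 1 of the 6 fibroblast markers at 1 FPKM was higher and 0 lower, against 6.21% and 7.64% of all symbols. In YUMM1.7 against YUMM1.1, 5 were higher and 0 lower, against 13.5% and 9.91%. None of the 6 reached 1 FPKM in YUMM1.1, so these counts are fixed in part by that threshold. The 8 melanocyte markers summed to 137 FPKM in YUMM1.1, 75.6 in YUMM2.1 and 1.75 in YUMM1.7. Of 7 leukocyte markers the sum was 5.37 FPKM in YUMM1.1, 33.2 in YUMM2.1 and 1.39 in YUMM1.7, with Lyz2 at 4.96, 25.9 and 0.048 FPKM, Cd53 at 0.0215, 3.01 and 0.658 and Cd68 at 0.362, 4.27 and 0.687. All 3 that reached 1 FPKM were higher in YUMM2.1 than YUMM1.1 by the fixed size, against 6.21% of all symbols at 1 FPKM. Cd53 and Cd68 reached 1 FPKM in YUMM2.1 alone, so that count is fixed in part by the threshold. Ptprc, which defines leukocytes, was at most 0.00217 FPKM. The endothelial and epithelial markers summed to at most 0.193 and 0.0221 FPKM. The part of other cells in the Hox values was not tested.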

How the data were processed

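The data were 3 RNA libraries, 1 for each of 3 mouse melanoma lines. The FPKM values were made and deposited by the authors, per gene symbol. Per the submitters' processing notes, TopHat2 2.0.9, Cufflinks and Cuffnorm were used. Neither build nor annotation is given in the sources used here, and the same holds for filters and library scaling. The table held 25791 symbols with 0 repeats and was used as deposited.

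The members and lists were chosen with earlier results of these data known. Values were read as log2(FPKM + 1), a pseudocount of 1, and a difference of 1 or more was counted as higher or lower. Hox genes at 1 FPKM or more in at least 1 line were named with all values; of other lists at most 4 genes with the largest differences were named, and Pbx3, Meis1, Meis2, Ezh2, Kmt2a, Rarb, Rarg, Sox10 and Pdgfra whatever their values. The weaker Hox genes, Hnrnpa2b1, Mtx2, Hoxaas3, Lyz2, Ptprc, Cd53, Cd68, Mlana, Mlph, Pdgfrb, Col1a1, Lum, Thy1 and Jazf1 were named after their values were seen. Some genes that the rule names are not reported here. Older symbols were matched through RefSeq.

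The value of 1 fragment was found in genes with 1 coding transcript of at least 3000 nt, as the spacing that best fitted low FPKM times length. In YUMM1.1, 83.1% of these values were whole multiples to within 0.2, in YUMM2.1 81.4% and in YUMM1.7 75.8%. Transcript lengths came from GENCODE M21, which need not be the annotation the authors used. Intervals are 95% exact Poisson intervals. The calculations were tested on simulated data. Alternatives were other pseudocounts, filters, floors and scalings. Python 3.11.15, numpy 2.4.6, scipy 1.17.1, pandas 2.3.3 and matplotlib 3.10.9 were used.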

Additional observations from a re-analysis of the deposited data

How the results depend on the processing

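No paired analysis was possible because each line had 1 library, and no library could be left out. Of 78 values under alternatives, 58 kept their direction and size class, 5 were weaker and 15 moved. Counts within 1.5-fold of the main count were held the same. Some of the 58 could not change, because no Hox gene exceeded 0.338 FPKM in YUMM1.1. Among them were the counts of genes lower than in YUMM1.1 and of genes expressed in YUMM1.1. The weaker and moved values were as follows. With a pseudocount of 5, 1 Hox gene was higher in each expressing line against YUMM1.1 (median 0.31 for YUMM2.1 and 0.36 for YUMM1.7), and 0 were higher or lower between YUMM2.1 and YUMM1.7. With a filter at 5 FPKM 1 gene, Hoxb7, was left, with counts of 1, 1 and 0 higher and 0 lower. Without a filter the medians against YUMM1.1 were 0.14 for YUMM2.1 and 0 for YUMM1.7, against 1.14 and 1.27 over the 13 genes at 1 FPKM. Under a common FPKM sum the median of YUMM1.7 minus YUMM1.1 was 0.69 (all symbols -0.60), and YUMM2.1 minus YUMM1.7 had 9 higher genes and a median of 1.19 (all symbols 1.1) in place of 4 and -0.03. That median of -0.03 lay near 0 and also changed sign with no filter (0.0077), with the filter at 5 FPKM (0.82, Hoxb7 alone), under a common upper quartile (0.40) and under the median ratio (0.27). With a floor of 2 FPKM, 4 Hox genes were expressed in YUMM2.1 in place of 10. No cause of these shifts was tested beyond the settings' own construction. Depth limits values under about 3 fragments, and YUMM1.7 was the shallowest library by the estimated depths.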
